A study of Mus musculus with 5 samples.

Results

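The genes described here are 10 genes of TGF-β and bone morphogenetic protein (BMP) signaling, measured by RNA-Seq in bone marrow–derived macrophages (BMDMs) after coculture with breast cancer cells. They were chosen by name, as *Tgfb1*, *Tgfbr1*, *Tgfbr2*, *Acvrl1*, *Smad3*, *Smad6*, *Smad7*, *Id1*, *Id2*, and *Id3*, and each symbol was matched to the Entrez gene identifier that the deposited tables carry. All 10 were among the 17018 genes with a count in at least 1 library, and all 10 were among the 12576 genes that passed the filter on low counts and were tested.

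BMDMs of BALB/c mice, grown with macrophage colony-stimulating factor, were cocultured for 48 hours with 4T1 cells, a mouse mammary carcinoma cell line, on the other side of a porous membrane. In 2 libraries the 4T1 cells were WT, and in 3 libraries they carried an ADAM17 knock-out. ADAM17 is a membrane protease that releases growth factors and receptors from the cell surface, and the question was what its loss in the cancer cells does to the macrophages. The deletion was therefore in the 4T1 cells, whereas the sequenced macrophages kept *Adam17*. All 3 *Adam17*-/- libraries carry the same knock-out designation, 2.8, and effects of the gene and of anything else particular to this line cannot be told apart. The study's methods give the age of the mice only as a range over its experiments, and the labels do not state whether the libraries of a group came from separate cultures or animals, so that the p-values measure the spread between these libraries only.

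Library totals were 14658694 to 20788373 counts, and 3 counts corresponded to 0.157 to 0.197 CPM (counts scaled to library size), far below every value of the 10 genes. By a χ2 test of their counts per degree of freedom, the WT pair differed more (25.7) than the *Adam17*-/- pairs did (5.22 to 6.32), and pairs between groups differed most (44.5 to 84.4), so that no library was a copy of another. All 8 macrophage markers were expressed, with a summed level of 27660 to 28420 CPM in the WT cocultures and 17940 to 19910 CPM in the *Adam17*-/- cocultures, and 6 of them passed the test, all lower. In bulk RNA, fewer cells of a type and less RNA per cell cannot be told apart.

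TGF-β1 is made as a latent complex and, once released, binds the type II receptor TGFBR2, which brings in and phosphorylates the type I receptor TGFBR1. TGFBR1 then phosphorylates SMAD2 and SMAD3, whereas BMP receptors and the type I receptor ALK1, the product of *Acvrl1*, act on SMAD1, SMAD5, and SMAD9. Both branches share SMAD4, are restrained by the inhibitory SMAD6 and SMAD7, and are read out by the ID genes, which code for helix-loop-helix proteins that bind other transcription factors and keep them from DNA. In macrophages TGF-β is known for dampening inflammatory activation and for supporting tissue repair.

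In macrophages cocultured with *Adam17*-/- 4T1 cells, *Tgfb1*, its type II receptor *Tgfbr2*, *Acvrl1*, *Smad3*, *Smad6*, and *Id1* were lower than in macrophages cocultured with WT 4T1 cells, and *Tgfbr1* and *Id3* were higher. Of the 10 genes, 8 had an adjusted p of 0.05 or less by edgeR's quasi-likelihood test with Benjamini-Hochberg adjustment over all genes tested, 2 of them higher and 6 lower. Of all genes tested, 31.7% passed, 14.9% higher and 16.8% lower. The test passes more abundant genes more often, and among the 6772 genes at least as abundant as *Id3*, the lowest of the 10, 38.9% passed. The median log2 fold change of the 10 genes was -0.44, against 0.0092 over all genes tested and -0.0725 over those 6772 genes. The 8 macrophage markers had a median of -0.594. Since the genes were not chosen independently of these data, these contrasts describe the 10 genes and are not a test of the pathway. A further limit of 1 on the absolute log2 fold change was met by 4.22% of all genes, and *Tgfb1*, at -0.97, came closest to it among the 10. The groups did not overlap for 9 of the 10 genes, 2 higher and 7 lower, as was so for 58.1% of all genes tested.

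**Figure D1:**
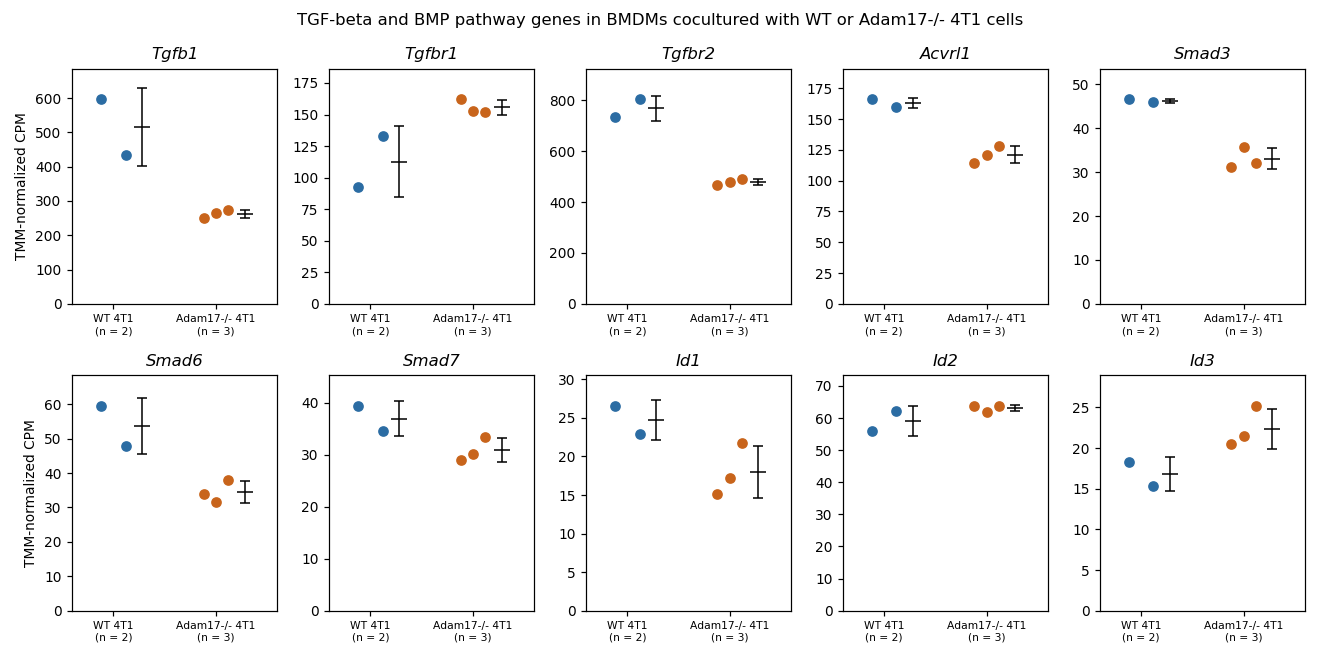
TMM-normalized CPM of the 10 genes in each library (points), with the mean and SD of each group (bar and whiskers), for BMDMs cocultured with WT 4T1 cells (n = 2) or *Adam17*-/- 4T1 cells (n = 3); each panel has its own axis from 0. Only *Id2* shows overlapping groups, and the 2 WT libraries lie far apart for *Tgfb1* (597 and 435 CPM) and *Tgfbr1* (92.8 and 133 CPM).

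Promoter sequences are shown for the members with the largest decreases, *Tgfb1*, *Tgfbr2*, and *Smad6*, and for both members that rose, *Tgfbr1* and *Id3*. They are the 250 bases upstream of the start site that the RefSeq promoter table (mouse build GRCm38.p6) uses, written 5′ to 3′ on the strand of the gene. For *Smad6* this start is an internal one, since the annotated gene reaches further upstream, to position 64022085, so that the end of its printed window lies within the gene. Capitals mark the SMAD-binding box GTCT, which reads AGAC on the other strand, its palindrome GTCTAGAC, and the GC-rich SMAD motif GGCGCC.
Tgfb1 (chr7:25686752-25687001, plus strand): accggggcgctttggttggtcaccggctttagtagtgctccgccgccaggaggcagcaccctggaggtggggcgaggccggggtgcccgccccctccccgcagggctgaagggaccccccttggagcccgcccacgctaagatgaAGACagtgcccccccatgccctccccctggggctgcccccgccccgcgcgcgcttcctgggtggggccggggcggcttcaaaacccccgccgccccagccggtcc
Tgfbr2 (chr9:116175364-116175613, minus strand): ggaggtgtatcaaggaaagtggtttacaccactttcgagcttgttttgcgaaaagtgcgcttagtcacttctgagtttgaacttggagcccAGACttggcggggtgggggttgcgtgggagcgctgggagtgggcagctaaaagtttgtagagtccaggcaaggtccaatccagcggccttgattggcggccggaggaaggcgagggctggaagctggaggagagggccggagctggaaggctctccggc
Smad6 (chr9:64022056-64022309, minus strand, with 4 bases after the start used): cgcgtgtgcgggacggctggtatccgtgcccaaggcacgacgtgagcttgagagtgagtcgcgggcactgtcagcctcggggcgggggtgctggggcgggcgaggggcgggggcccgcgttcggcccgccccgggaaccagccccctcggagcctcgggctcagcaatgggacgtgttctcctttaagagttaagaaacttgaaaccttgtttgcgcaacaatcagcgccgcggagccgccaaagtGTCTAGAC
Tgfbr1 (chr4:47352972-47353221, plus strand): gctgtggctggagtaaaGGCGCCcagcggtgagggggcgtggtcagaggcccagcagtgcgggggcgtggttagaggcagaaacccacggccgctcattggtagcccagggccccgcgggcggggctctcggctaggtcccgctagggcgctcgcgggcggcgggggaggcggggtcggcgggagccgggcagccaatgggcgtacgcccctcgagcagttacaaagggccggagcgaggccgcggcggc
Id3 (chr4:136143572-136143821, plus strand): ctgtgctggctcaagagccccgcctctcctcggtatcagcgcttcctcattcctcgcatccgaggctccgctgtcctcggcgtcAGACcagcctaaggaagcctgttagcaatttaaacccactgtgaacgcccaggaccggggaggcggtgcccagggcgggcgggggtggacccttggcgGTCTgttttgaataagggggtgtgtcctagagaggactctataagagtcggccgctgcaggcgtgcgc

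The *Smad6* window holds the palindrome GTCTAGAC from 4 bases before to 4 bases after the start used, inside the annotated gene, and 57 of 27025 RefSeq promoter windows (0.211%; from 250 bases before to 50 after the start, both strands) hold those letters. *Tgfb1* and *Tgfbr2* each have a single SMAD box, and *Id3* has 2 in the bases printed and another 22 bases past its start. A SMAD box alone is common, since GTCT or AGAC occurs in 88.0% of the windows. The *Tgfbr1* window has no SMAD box and a single GGCGCC, which 3233 of the windows hold. Of the other members with a window in the table, *Smad3* has a SMAD box 183 bases upstream and *Id2* has a SMAD box and a GGCGCC. The E-box CANNTG, bound by the basic helix-loop-helix partners of ID proteins, occurs in 72.1% of the windows and in those of *Tgfbr2*, *Smad6*, and *Id2*. The AP-1 motif TGANTCA occurs in 7.93% and in none of these 7 members. These matches are letters in a window, and no binding was measured.

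*Tgfb1* (Entrez 21803, chr7:25687002-25705077), the ligand, showed the largest change. It stood at 597 and 435 CPM in the WT cocultures and at 251, 264, and 274 CPM in the *Adam17*-/- cocultures. All 3 *Adam17*-/- libraries lay below both WT libraries, and they varied little (SD 11.9 CPM, n = 3), whereas WT replicate 1 stood well above WT replicate 2 (SD 114 CPM, n = 2). The level fell by 49.0%, with a log2 fold change of -0.97 (SE 0.12, 95% interval -1.25 to -0.70, adjusted p = 0.00083). Without WT replicate 1 the log2 fold change was -0.73, and without WT replicate 2 it was -1.18, and *Tgfb1* passed in both cases.

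*Tgfb1* was the most abundant ligand of the family by FPKM (fragments scaled to transcript length and library size). Of 20 ligand genes listed, 6 were tested, and the median log2 fold change of these 6 was -0.22. Of the 6, 2 passed, both lower (33.3%, near the 31.7% of all genes tested). The other ligand that passed, *Bmp2*, a BMP that acts on neighboring cells, was at 4.66 and 3.68 CPM in the WT cocultures and 1.75, 2.04, and 1.85 CPM in the *Adam17*-/- cocultures. Its groups did not overlap, and its log2 fold change was -1.15 (SE 0.21, adjusted p = 0.0040), or -0.44 on log2(FPKM + 1), which understates changes of low genes. *Tgfb2* had at most 5 counts in any library, and *Bmp4*, *Bmp6*, and *Gdf2*, the BMP9 gene that encodes a ligand of ALK1, had 0 counts in all 5, where 3 counts would be at most 0.197 CPM.

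Genes that process or release latent TGF-β also passed more often lower than higher. Of 15 listed, 11 were tested and 7 passed (63.6%, against 31.7% of all genes tested), 6 lower and 1 higher. The median log2 fold change of the 11 was -0.39. *Mmp14*, a membrane metalloproteinase that can release active TGF-β, was the most abundant by FPKM, with 1294 and 1128 CPM in the WT cocultures and 818, 892, and 883 CPM in the *Adam17*-/- cocultures (log2 fold change -0.49, adjusted p = 0.0046). *Mmp9*, a secreted gelatinase, was at 384 and 352 CPM against 250, 213, and 239 CPM (-0.65, adjusted p = 0.0013). *Nrros*, which anchors latent TGF-β1 on myeloid cells, had -0.48 (adjusted p = 0.0083), and *Furin*, the protease that cuts the TGF-β precursor, had -0.45 (adjusted p = 0.012). *Thbs1*, the matrix protein thrombospondin-1, had -0.39 (adjusted p = 0.026). *Ltbp3*, which binds latent TGF-β in the matrix, passed with overlapping groups (-0.40, adjusted p = 0.045). In contrast, *Ltbp1*, another latent TGF-β–binding protein, was at 3.09 and 2.11 CPM in the WT cocultures and 3.45, 5.07, and 5.40 CPM in the *Adam17*-/- cocultures (log2 fold change 0.83, adjusted p = 0.035). *Ltbp1* lost its call without WT replicate 2 (0.58) and without *Adam17*-/- replicates 2 (0.79) or 3 (0.72), and on log2(FPKM + 1) it passed at 0.34. *Thbs1* lost its call without WT replicate 2 (-0.20), each *Adam17*-/- replicate in turn (-0.41 to -0.35), and with library size as the only scaling (-0.25) and limma on log2(FPKM + 0.1) (-0.24) and log2(FPKM + 1) (-0.23). Without WT replicate 1, *Furin* was at -0.26 and *Nrros* at -0.31, and both passed, and *Furin* lost its call without *Adam17*-/- replicate 1 (-0.41).

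The receptor subunits changed in opposite directions. *Tgfbr2* (Entrez 21813, chr9:116087695-116175363), the type II receptor that binds TGF-β1, was at 734 and 805 CPM in the WT cocultures and 467, 478, and 491 CPM in the *Adam17*-/- cocultures. The lowest WT library was far above the highest *Adam17*-/- library. The level fell by 37.8% (log2 fold change -0.68, SE 0.08, 95% interval -0.87 to -0.50, adjusted p = 0.00065).

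*Tgfbr1* (Entrez 21812, chr4:47353222-47414926), the type I partner that carries the signal to SMAD2 and SMAD3, was at 92.8 and 133 CPM in the WT cocultures and 162, 153, and 152 CPM in the *Adam17*-/- cocultures. All *Adam17*-/- libraries were higher, and the gap to WT replicate 2 was small beside the difference between the WT libraries. The log2 fold change was 0.47 (SE 0.13, 95% interval 0.17 to 0.77, adjusted p = 0.026). Its size rested on the WT libraries, with 0.23 without WT replicate 1 and 0.74 without WT replicate 2. The call was lost without *Adam17*-/- replicate 1 (adjusted p = 0.096), replicate 2 (adjusted p = 0.075), or replicate 3 (adjusted p = 0.068), although the log2 fold change stayed between 0.45 and 0.50.

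The ratio of *Tgfbr1* to *Tgfbr2* in FPKM was chosen after its values were seen and is given without a test. It was 0.104 and 0.136 in the WT cocultures and 0.286, 0.264, and 0.254 in the *Adam17*-/- cocultures. *Tgfbr2* thus stayed the more abundant receptor RNA in every library. Both genes have several listed transcripts. The 4728-base transcript of *Tgfbr2* held 57.9% to 63.4% of the gene's FPKM across all 5 libraries, with overlapping groups. Of the 3 *Tgfbr1* transcripts, the longest, of 5779 bases, held 53.2% and 47.3% in the WT cocultures and 37.8%, 39.5%, and 50.5% in the *Adam17*-/- cocultures, and these groups overlapped too. The shortest, of 5632 bases, held 3.15% and 6.22% in the WT cocultures and 10.6%, 6.36%, and 13.9% in the *Adam17*-/- cocultures, so that its groups did not overlap, with *Adam17*-/- replicate 2 close to WT replicate 2. These shares were not tested.

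*Acvrl1* (Entrez 11482, chr15:101128522-101145336) encodes ALK1, a type I receptor best known from endothelial cells. It was at 166 and 160 CPM in the WT cocultures and 114, 121, and 129 CPM in the *Adam17*-/- cocultures. Replicates agreed closely in both groups, and the groups were clearly apart. The level fell by 25.6% (log2 fold change -0.43, SE 0.08, 95% interval -0.61 to -0.24, adjusted p = 0.0053). A 3640-base transcript held 83.4% and 91.7% of its FPKM in the WT cocultures and 58.9%, 66.2%, and 77.3% in the *Adam17*-/- cocultures, so that the groups did not overlap in this share, which was not tested. The division of reads among the 4 listed transcripts of *Acvrl1* is the authors' estimate.

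*Eng*, the coreceptor that works with ALK1, was lower as well, with 127 and 104 CPM in the WT cocultures and 81.7, 80.9, and 88.4 CPM in the *Adam17*-/- cocultures (log2 fold change -0.47, adjusted p = 0.0087), although without *Adam17*-/- replicate 1 it missed the threshold (-0.43, adjusted p = 0.051). Both genes are widely used as endothelial genes, and 5 of 8 endothelial markers were tested, with a summed level over the list of 95.5 to 108 CPM in the WT cocultures and 68.6 to 82.3 CPM in the *Adam17*-/- cocultures. Of these, *Kdr* (log2 fold change -0.74, adjusted p = 0.0026) and *Cdh5* (log2 fold change -1.10, adjusted p = 0.048) passed as lower. The list did not fall as a whole, since *Pecam1* was at 23.4 and 23.9 CPM in the WT cocultures and 25.9, 28.4, and 31.0 CPM in the *Adam17*-/- cocultures (log2 fold change 0.27, adjusted p = 0.082), and *Erg*, near the floor, also lay higher with groups apart (1.29, adjusted p = 0.082). Levels differed widely within the list. *Kdr* was at 77.0 and 64.0 CPM in the WT cocultures and 36.2, 46.3, and 44.4 CPM in the *Adam17*-/- cocultures. *Cdh5* was at 0.493 to 1.36 CPM, and *Tek*, *Emcn*, and *Cldn5* had at most 2 counts in any library. The part of endothelial cells in these changes was not tested.

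Over the whole receptor list, 13 of 19 genes were tested, and 5 passed lower and 4 higher (69.2%, against 31.7% of all genes tested). The median log2 fold change of the 13 was -0.20. Beside *Tgfbr1*, the higher genes were *Bmpr1a*, a type I BMP receptor (0.64, adjusted p = 0.014), and the activin type II receptors *Acvr2a* (0.55, adjusted p = 0.021) and *Acvr2b* (0.54, adjusted p = 0.0054). Beside *Tgfbr2*, *Acvrl1*, and *Eng*, the lower genes were *Acvr1*, the type I receptor ALK2 (log2 fold change -0.62, adjusted p = 0.0027), and *Rgmb*, a BMP coreceptor (-0.53, adjusted p = 0.036). Among BMP type I receptors, *Bmpr1a* and *Acvr1* therefore changed in opposite directions, with *Acvr1* at 25.1 and 28.7 CPM against 17.4, 17.3, and 17.9 CPM, and *Bmpr1a* at 4.40 and 4.82 CPM against 7.77, 6.71, and 6.99 CPM. Calls were lost for *Bmpr1a* without *Adam17*-/- replicate 1 (0.59, and 0.40 on log2(FPKM + 1), where it passed), for *Acvr2a* without WT replicate 1 (0.32) and *Adam17*-/- replicates 1 (0.50) or 3 (0.58), and for *Rgmb* without WT replicate 1 (-0.30) and each *Adam17*-/- replicate in turn (-0.58 to -0.39). *Rgmb* also lost it with upper quartile factors (-0.47), library size only (-0.38), and limma on log2(FPKM + 0.1) (-0.37) and log2(FPKM + 1) (-0.32). *Bmpr1b* had at most 1 count, and *Tgfbr3*, the coreceptor betaglycan, at most 12.

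**Figure D2:**
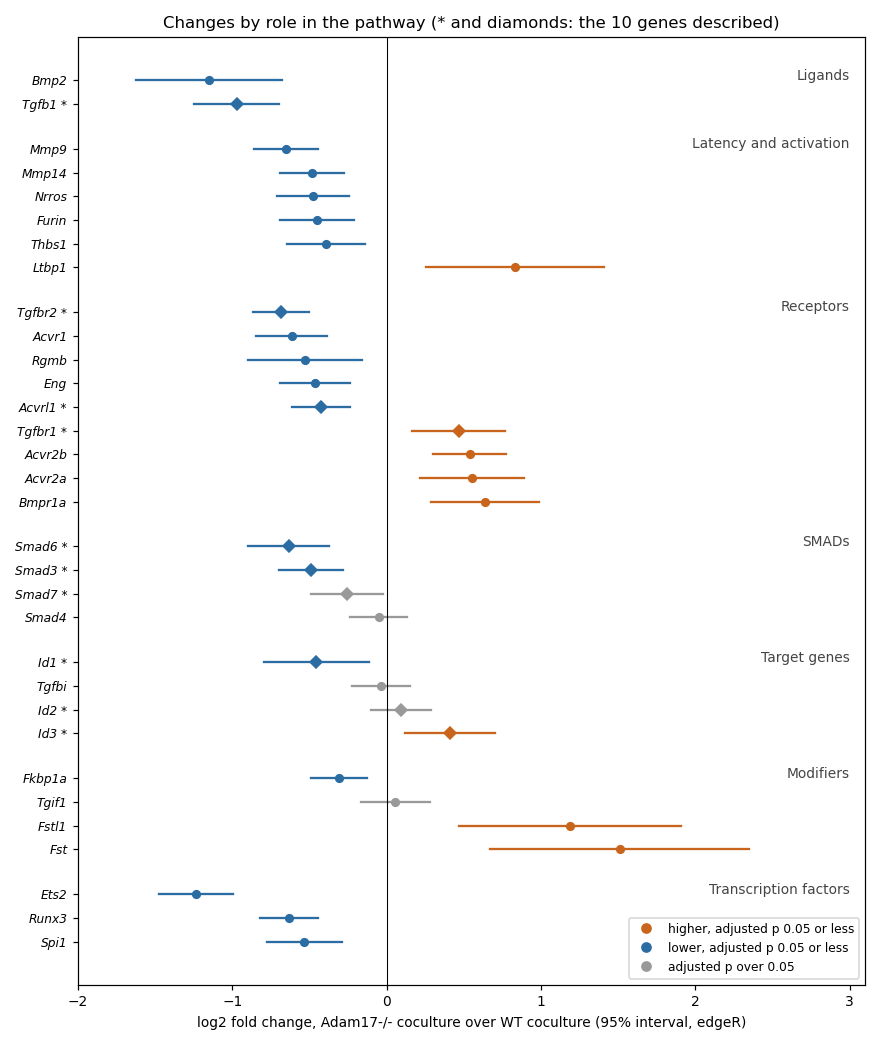
log2 fold change, *Adam17*-/- over WT coculture, with its 95% interval from edgeR, for the 10 genes (diamonds, starred) and other named genes of the pathway lists (circles), grouped by role; orange genes passed as higher and blue genes as lower, and gray genes did not pass. Changes of *Tgfb1*, *Smad3*, and *Smad6* lie left of 0, and the receptors lie on both sides, from -0.68 for *Tgfbr2* to 0.64 for *Bmpr1a*.

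*Smad3* (Entrez 17127, chr9:63646766-63757994) encodes a receptor-activated SMAD of the TGF-β branch. It was at 46.6 and 46.0 CPM in the WT cocultures and 31.2, 35.7, and 32.2 CPM in the *Adam17*-/- cocultures. The WT libraries were nearly equal, and all *Adam17*-/- libraries were lower. The level fell by 28.7% (log2 fold change -0.49, SE 0.09, 95% interval -0.70 to -0.28, adjusted p = 0.0047).

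*Smad6* (Entrez 17130, chr9:63953076-64022085), the inhibitory SMAD that mainly restrains BMP receptors, was at 59.5 and 47.9 CPM in the WT cocultures. In the *Adam17*-/- cocultures it was at 34.0, 31.6, and 37.9 CPM, below both WT libraries. The level fell by 35.7% (log2 fold change -0.64, SE 0.12, 95% interval -0.90 to -0.37, adjusted p = 0.0040).

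*Smad7* (Entrez 17131), the inhibitory SMAD that restrains TGF-β receptors, was at 39.3 and 34.5 CPM in the WT cocultures and 29.0, 30.2, and 33.4 CPM in the *Adam17*-/- cocultures. The groups did not overlap, but WT replicate 2 and *Adam17*-/- replicate 3 lay close together. Its log2 fold change of -0.26 (SE 0.10, 95% interval -0.49 to -0.03) had an adjusted p of 0.083 by edgeR and did not pass. With library size as the only scaling it was -0.11, and in limma on log2(FPKM + 0.1) and log2(FPKM + 1) it was -0.11 and -0.098. *Smad7* passed without WT replicate 2, at -0.35, and on the FPKM scale its groups overlapped. Whether the change of *Smad6* differed from that of *Smad7* was not tested.

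Of 8 SMAD genes, 7 were tested, and the median log2 fold change of these 7 was -0.21. *Smad3* and *Smad6* were the 2 that passed (28.6%, near the 31.7% of all genes tested). *Smad4*, the common partner and the most abundant by FPKM, was at 66.3 and 64.2 CPM in the WT cocultures and 65.1, 60.3, and 63.4 CPM in the *Adam17*-/- cocultures (log2 fold change -0.05, 95% interval -0.24 to 0.13, adjusted p = 0.66). *Smad2*, the closest relative of *Smad3*, had -0.21 on the log2 scale (adjusted p = 0.15), and *Smad1* and *Smad5* of the BMP branch had -0.10 (adjusted p = 0.50) and -0.07 (adjusted p = 0.57). *Smad9* was not tested, with 0 counts in both WT libraries and 5, 4, and 8 counts in the *Adam17*-/- libraries.

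The ID genes, direct targets of BMP-activated SMADs, did not move together. *Id1* (Entrez 15901, chr2:152736251-152737410) was at 26.5 and 22.9 CPM in the WT cocultures and 15.1, 17.2, and 21.7 CPM in the *Adam17*-/- cocultures. *Adam17*-/- replicate 3 came close to WT replicate 2, and on the FPKM scale the groups overlapped. The level fell by 27.1% (log2 fold change -0.46, SE 0.15, 95% interval -0.79 to -0.12, adjusted p = 0.045). The call was near the threshold and was lost without WT replicate 1 (-0.35), *Adam17*-/- replicate 1 (-0.32), or *Adam17*-/- replicate 2 (-0.40), with upper quartile factors (-0.40), with library size as the only scaling (-0.31, adjusted p = 0.14), and in the limma fits on FPKM (-0.32 and -0.31).

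*Id3* (Entrez 15903, chr4:136143822-136145392), in contrast, was higher, with 18.3 and 15.4 CPM in the WT cocultures and 20.5, 21.4, and 25.2 CPM in the *Adam17*-/- cocultures. All *Adam17*-/- libraries lay above both WT libraries. The log2 fold change was 0.41 (SE 0.13, 95% interval 0.12 to 0.70, adjusted p = 0.037). The call was lost without WT replicate 2 (0.29). It was also lost without *Adam17*-/- replicate 1 (0.49), 2 (0.46), or 3 (0.34), where adjusted p-values reached 0.11 by edgeR. With the replicate number as a block it was lost too (0.32, adjusted p = 0.18 by edgeR). The direction of *Id3* was the same in each of these fits.

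*Id2* (Entrez 15902, chr12:25093799-25096092) was at 55.9 and 62.3 CPM in the WT cocultures and 63.6, 61.9, and 63.7 CPM in the *Adam17*-/- cocultures. These groups overlapped, and the log2 fold change of 0.09 had a 95% interval of -0.10 to 0.29 (adjusted p = 0.43). Its size depended on the scaling, at 0.24 with library size only and 0.24 in both limma fits on FPKM. Without WT replicate 1 it was 0.013, and without WT replicate 2 it was 0.17. *Id4*, the remaining gene of the family, had a single count in 1 library.

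Since *Id1* and *Id3* passed in opposite directions, their ratio in FPKM was taken, again after the values were seen and without a test. *Id3* stood at 0.667 and 0.649 of *Id1* in the WT cocultures and at 1.31, 1.21, and 1.12 of *Id1* in the *Adam17*-/- cocultures. *Id1* was thus the more abundant transcript per length in both WT libraries, and *Id3* in all 3 *Adam17*-/- libraries.

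**Figure D3:**
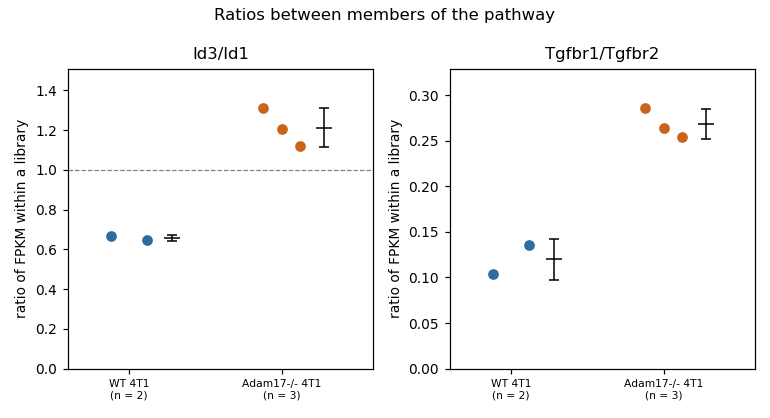
FPKM of *Id3* divided by that of *Id1* (left; dashed line at 1) and of *Tgfbr1* divided by that of *Tgfbr2* (right) in each library (points), with group mean and SD, for the WT (n = 2) and *Adam17*-/- (n = 3) cocultures. *Id3* over *Id1* is below 1 in both WT libraries and above 1 in all *Adam17*-/- libraries, and *Tgfbr1* over *Tgfbr2* is below 0.29 everywhere.

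Per transcript length, the 10 genes spanned a wide range in both groups. In the WT cocultures, *Tgfb1* was highest at 228 ± 43.2 FPKM (SD, n = 2), followed by *Tgfbr2* at 154 ± 15.0 FPKM. *Id2* and *Acvrl1* came next at 45.6 and 43.0 FPKM with overlapping ranges, then *Id1* at 26.8 FPKM. *Tgfbr1*, *Id3*, and *Smad6* lay at 18.7, 17.6, and 17.3 FPKM, and their ranges overlapped from each gene to the next. *Smad3* and *Smad7* were lowest, at 8.66 and 7.92 FPKM.

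In the *Adam17*-/- cocultures, *Tgfb1* and *Tgfbr2* were still the highest, at 129 ± 5.04 and 106 ± 2.20 FPKM (SD, n = 3). *Id2* at 53.8 FPKM and *Acvrl1* at 35.4 FPKM kept their places and no longer overlapped. *Tgfbr1* and *Id3*, at 28.4 and 26.0 FPKM, now stood above *Id1* at 21.6 FPKM, although the ranges of *Tgfbr1* and *Id3* overlapped, as did those of *Id3* and *Id1*. *Smad6* was at 12.4 FPKM, and *Smad7* and *Smad3*, at 7.33 and 6.83 FPKM, overlapped. FPKM values carry the authors' scaling and not the TMM factors, so differences between groups on this scale are not those of the test.

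**Figure D4:**
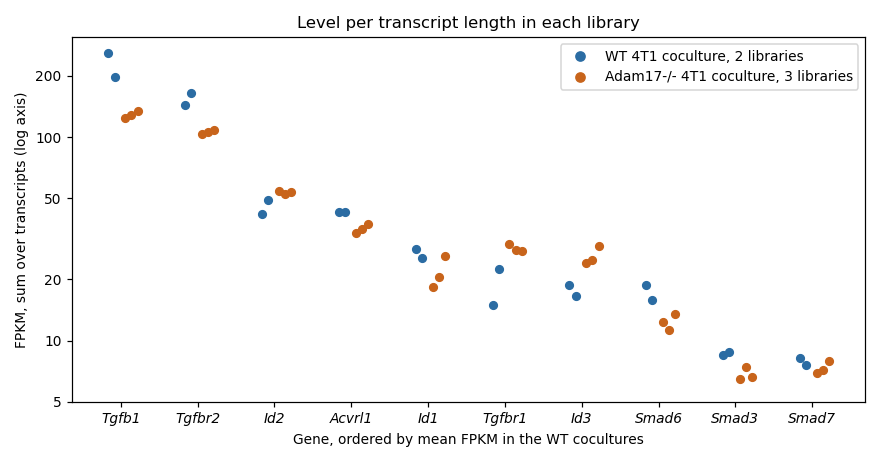
FPKM of each of the 10 genes, summed over transcripts, in every library on a log axis, with genes in the order of their WT mean; blue points are the 2 WT cocultures and orange points the 3 *Adam17*-/- cocultures. *Tgfb1* and *Tgfbr2* lie above 100 FPKM in all 5 libraries, and *Smad3* and *Smad7* lie below 10 FPKM.

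Across the other genes of the 7 pathway lists, 69 of 105 were tested, 14 passed lower and 7 higher (30.4%), and their median log2 fold change was -0.10. This share was near the 31.7% of all genes tested. Of 24 target genes of TGF-β or BMP, which include the members *Id1*, *Id2*, *Id3*, *Smad6*, and *Smad7*, 17 were tested. Of these 17, 2 passed higher and 3 lower (29.4%, also near that of all genes), and the median log2 fold change was 0.09. *Tgfbi*, a secreted matrix protein and the most abundant target by FPKM, was at 1813 and 1708 CPM against 1691, 1723, and 1728 CPM (log2 fold change -0.04, 95% interval -0.23 to 0.15, adjusted p = 0.75). Targets were therefore found higher, lower, and with no call.

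Of 25 modifiers of the pathway, 22 were tested, and 2 passed higher and 1 lower (13.6%, against 31.7% of all genes tested). The median log2 fold change of the 22 was 0.0063. *Fst*, which codes for follistatin, the soluble trap of activins, was low in all libraries, at 0.523 and 0.866 CPM in the WT cocultures and 2.03, 1.38, and 2.49 CPM in the *Adam17*-/- cocultures (log2 fold change 1.51, adjusted p = 0.015). Its relative *Fstl1* was at 2.15 and 1.14 CPM against 2.68, 4.28, and 4.34 CPM (log2 fold change 1.19, adjusted p = 0.021). *Fst* lost its call without WT replicate 1 (1.19) or *Adam17*-/- replicate 3 (1.32), and *Fstl1* without WT replicate 2 (0.80) or *Adam17*-/- replicates 2 (1.11) or 3 (1.09). On log2(FPKM + 1), a scale that understates changes of low genes, the log2 fold changes were 0.49 for *Fst* and 0.55 for *Fstl1*. *Fkbp1a*, the immunophilin FKBP12 that binds type I receptors, was at 97.7 and 97.9 CPM against 80.1, 75.5, and 81.2 CPM (log2 fold change -0.31, adjusted p = 0.018), and it lost its call without each *Adam17*-/- replicate in turn (-0.31 to -0.26), with library size only (-0.16), and in both limma fits on FPKM (-0.16). *Tgif1*, a corepressor and the most abundant modifier by FPKM, did not pass (log2 fold change 0.05, adjusted p = 0.70).

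Markers of other cells and states also differed between the groups, and their part in the results above was not tested. For comparison, 14.9% of all genes tested passed higher and 16.8% lower. Of 8 neutrophil precursor markers, 6 were higher, with sums of 150 to 176 CPM in the WT cocultures and 500.1 to 675 CPM in the *Adam17*-/- cocultures. Of 8 megakaryocyte and platelet markers, whose cells are a rich source of TGF-β1, 5 were higher and 2 lower, and the list's sum fell from 2198 to 2334 CPM in the WT cocultures to 1108 to 1226 CPM in the *Adam17*-/- cocultures, because *Pf4* and *Ppbp* make up most of it. Fibroblast markers summed to 35.0 to 41.2 CPM in the WT cocultures and 40.7 to 121 CPM in the *Adam17*-/- cocultures, so that the sums overlapped. Of 5 tested markers 2 passed higher, *Col3a1* and *Pdgfrb*. The highest sum was that of *Adam17*-/- replicate 3. *Col1a1* was at 17.1 and 14.8 CPM against 11.55, 23.2, and 66.3 CPM, and *Col1a2* at 13.2 and 11.6 CPM against 7.39, 15.2, and 30.45 CPM. Neither of these passed, and their groups overlapped. Of 8 proliferation markers 4 were higher, with sums of 189 to 201 CPM in the WT cocultures and 223 to 243 CPM in the *Adam17*-/- cocultures. Of 8 epithelial markers only *Cdh1* was tested (log2 fold change 0.14, adjusted p = 0.42), and the carcinoma markers *Epcam* and *Krt8* had at most 1 and 3 counts.

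The scaling between libraries bears on how many genes lie on each side of 0. With library size as the only scaling, 3019 genes were higher and 1077 lower, in place of 1869 and 2114, and the median over the whole table moved from 0.0092 to 0.16 on the log2 scale. Under all 13 other fits, which changed the tool, scaling, filter, block, or libraries, the log2 fold change of each of the 10 genes had the same sign. *Tgfb1*, *Tgfbr2*, *Acvrl1*, *Smad3*, and *Smad6* passed in all of them.

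**Figure D5:**
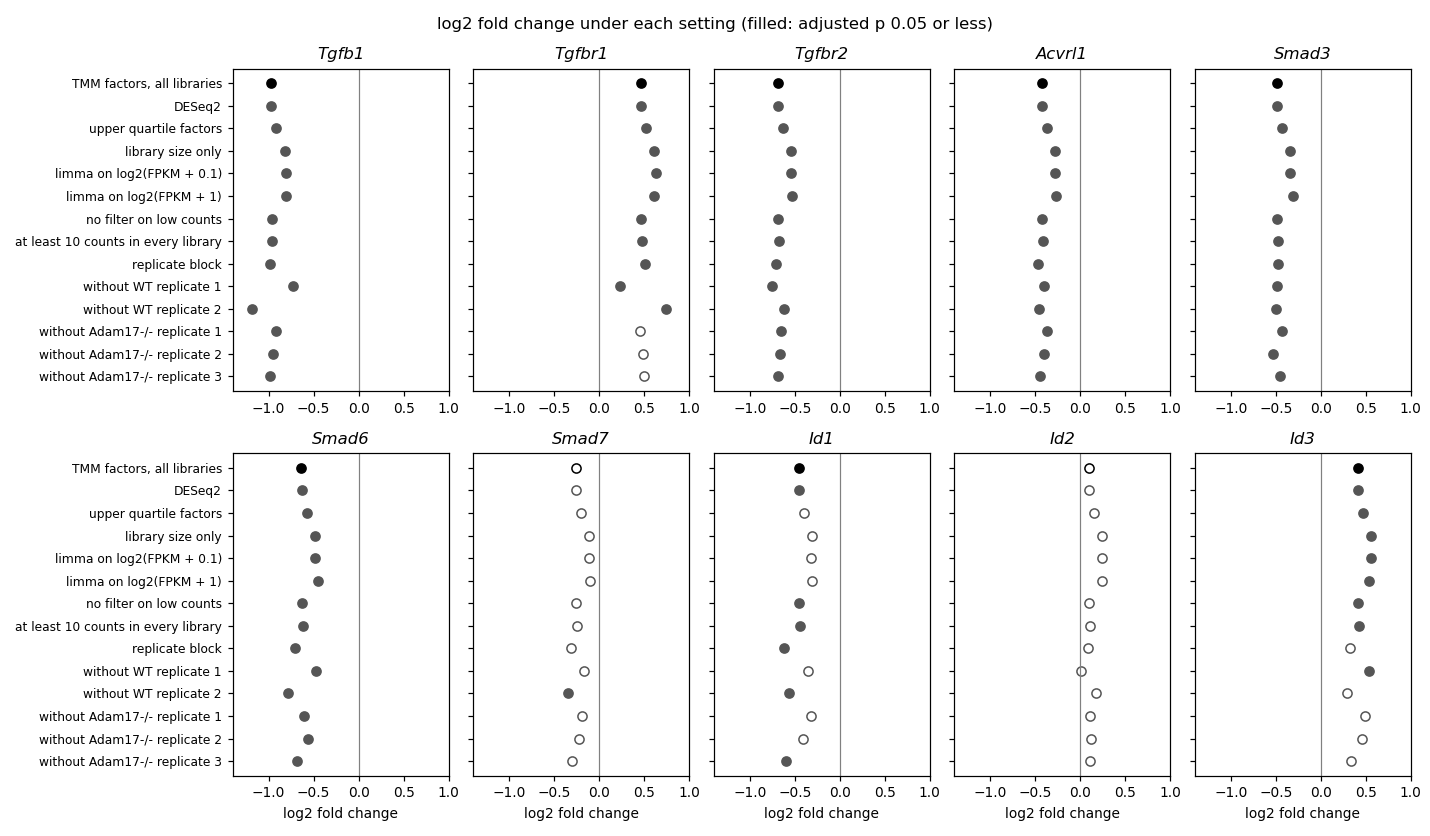
log2 fold change (*Adam17*-/- over WT coculture) of the 10 genes under the 14 fits, 1 row per fit, with TMM factors and all libraries in the top row; filled points passed the test and open points did not. *Tgfb1*, *Tgfbr2*, *Acvrl1*, *Smad3*, and *Smad6* are filled in every row, *Tgfbr1*, *Id1*, and *Id3* are open in some, and *Id2* is open throughout.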

How the data were processed

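RNA-Seq libraries of 5 BMDM samples, 2 from WT and 3 from *Adam17*-/- 4T1 cocultures, were placed in groups by their labels. The authors sequenced poly-A RNA on a BGISEQ-500 platform (paired-end) and aligned reads to GRCm38 with HISAT. The submitters' processing notes also list Bowtie2, RSEM, DESeq2, and mm10, and tool versions are not given in the sources used here. The deposited tables, 1 per library, give each transcript's expected count as the authors' raw estimate. They also give its FPKM, which the authors scaled to length and depth. Transcripts under an FPKM of 0.01 are not listed and were taken as 0. How overlapping genes and strand were treated is not given. The counts of the 10 genes were whole except for *Tgfbr1* and *Acvrl1* (within 0.01 and 0.18 of a whole number), and the 4 RefSeq genes that overlap *Tgfbr1*, *Tgfbr2*, *Smad3*, or *Smad7* had 0 counts. Of 17058 gene identifiers, 17015 matched a RefSeq symbol.

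Gene totals of the expected counts were rounded to whole numbers. The test was edgeR's (version 4.0.16, under R 4.3.3), with filterByExpr, TMM factors, glmQLFit, and glmQLFTest and no covariates. Passing meant an adjusted p (Benjamini-Hochberg, 12576 genes) of at most 0.05. The SE is the absolute log2 fold change divided by the square root of F, and 95% intervals use the fit's degrees of freedom. Levels are TMM-normalized CPM. Counting error and replicate spread both enter the fit, and an exact permutation test of 2 against 3 libraries cannot go below p = 0.1. The members and lists were chosen with earlier results of these data known. Named genes are the 10 members, other pathway genes that passed with groups that did not overlap, the most abundant gene of each list by FPKM, and genes that bound a statement on a list. Of the genes this rule names, 1 is not reported here. *Ltbp3*, *Smad1*, *Smad2*, *Smad5*, *Pecam1*, *Erg*, *Col1a1*, *Col1a2*, the E proteins, and the genes at or near 0 counts were named after their values were seen. Alternatives were upper quartile factors, library size only, DESeq2 1.42.0, limma 3.58.1 on log2(FPKM + a pseudocount of 0.1 or 1), no filter, at least 10 counts in every library, an adjusted p of 0.01, the replicate number as a block, and each library left out in turn. Scripts were tested on simulated data. Python 3.11.15 with pandas 2.3.3 and matplotlib 3.10.9, and the R package data.table (version 1.17.8), were also used. Promoter windows came from RefSeq, 7 of the 10 genes having one in the table used. Motifs were searched on both strands.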

Additional observations from a re-analysis of the deposited data

How the results depend on the processing

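Of the 10 genes, *Tgfb1*, *Tgfbr2*, *Acvrl1*, *Smad3*, and *Smad6* passed under all 14 alternatives, and *Id2* under none. Some of these changes were smaller with library size only and in limma on log2(FPKM + 0.1) and log2(FPKM + 1). In that order, *Acvrl1* was at -0.28, -0.28, and -0.27, and *Smad3* at -0.34, -0.34, and -0.30. At an adjusted p of 0.01, the calls of *Tgfbr1* (log2 fold change 0.47), *Id1* (-0.46), and *Id3* (0.41) were lost, so that 0 of the 10 were higher by edgeR (2 at an adjusted p of 0.05) and 5 lower, and 815 genes were higher and 1027 lower over the whole table (215 higher at a log2 limit of 1), with 1 pathway gene higher. *Id1* was also lost with upper quartile factors (-0.40), library size only (-0.31), and limma on log2(FPKM + 0.1) (-0.32) and log2(FPKM + 1) (-0.31), and the cause was not tested. Over the whole table, library size only gave 3019 higher and 1077 lower (639 and 57 at a log2 limit of 1) and 16 pathway genes higher. The limma fits gave 2927 and 1016 (51 lower at that limit, 14 pathway genes higher) and 2867 and 1011 (120 and 30 at that limit). Over the whole table the median log2 fold change was 0.0092 with TMM factors, 0.16 with library size only, and 0.15 and 0.11 in the limma fits.

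With each library left out in turn, 1089 to 2460 genes were higher and 926 to 2940 lower (323 to 449 and 77 to 176 at a log2 limit of 1), against 1869 and 2114 with all libraries (422 and 109). The lowest counts came without *Adam17*-/- replicate 1 and the highest without WT replicate 2, except that the fewest genes higher at the limit came without *Adam17*-/- replicate 3. Of the 10 genes, 0 to 2 were higher and 5 to 7 lower, and 3 to 15 pathway genes were higher and 13 to 27 lower, with 3 higher without *Adam17*-/- replicate 3 and 15 without WT replicate 1. The log2 fold changes ranged from 0.23 to 0.74 for *Tgfbr1*, -0.60 to -0.32 for *Id1*, 0.29 to 0.54 for *Id3*, and -0.35 to -0.17 for *Smad7*, which passed without WT replicate 2 only. Where 1 WT library was left, its spread was assumed to be that of the other group.

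With the replicate number as a block, 1216 genes were higher and 1126 lower, and of the 10 genes *Id3* lost its call (0.32, adjusted p = 0.18 by edgeR), leaving 1 higher and 6 lower. Among other named pathway genes *Ltbp1* (0.69), *Thbs1* (-0.38), and *Fkbp1a* (-0.33) lost theirs. Same-numbered libraries did not deviate together from their group means (correlations -0.16 and -0.08 for numbers 1 and 2). The deviations of 2 WT libraries mirror each other, so these correlations cannot show whether same-numbered libraries shared a culture or animal. The labels do not state it, and number 3 has no WT partner. Directions turned for pathway genes near 0 that did not pass: *Smad4* (-0.05) was at 0.0057 with upper quartile factors, 0.096 with library size only, and 0.094 and 0.090 in the limma fits. *Tgfbi* (-0.04) was at 0.018, 0.11, 0.11, and 0.11 in the same order and ranged from -0.084 to 0.00088 with a library left out. *Tgif1* (0.05) ranged from -0.10 without WT replicate 2 to 0.22 without WT replicate 1, where it passed. No member had fewer than 261 counts in any library, and counting error and replicate spread were not separated.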

Other observations

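Transcription factors that work with SMADs or IDs have not been described above. Of 10 listed (E proteins, HES and HEY repressors, RUNX factors, and ETS factors), 9 were tested, 3 passed (33.3%, near the 31.7% of all genes tested), all lower, and the median log2 fold change was -0.24. *Ets2*, an ETS factor known as an effector of MAPK signaling, was at 212 and 227 CPM in the WT cocultures and 81.2, 94.3, and 104 CPM in the *Adam17*-/- cocultures, a fall of 57.5% (log2 fold change -1.24, SE 0.11, adjusted p = 0.00023 by edgeR). *Runx3*, a RUNX factor that cooperates with SMAD3, was at 143 and 130 CPM against 90.4, 89.9, and 83.5 CPM (log2 fold change -0.64, adjusted p = 0.00099 by edgeR). *Spi1*, which codes for PU.1, the lineage factor of macrophages, was at 460 and 357 CPM against 273, 276, and 296 CPM (log2 fold change -0.54, adjusted p = 0.0063 by edgeR). For all 3 factors both WT libraries lay above all *Adam17*-/- libraries. Without WT replicate 1, *Spi1* was at -0.35 and passed.

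The E proteins, the main binding partners of IDs, did not pass. *Tcf3* had a log2 fold change of -0.30 (adjusted p = 0.067 by edgeR), *Tcf12* of -0.24 (adjusted p = 0.091), and *Tcf4* of 0.13 (adjusted p = 0.29).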
